A study of Mus musculus with 4 samples.

Results

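The genes described here are 8 granzymes (Gzma, Gzmb, Gzmc, Gzmd, Gzme, Gzmf, Gzmk and Gzmm) and perforin (Prf1). They were chosen by name from the 24537 genes of an expression table of CD8+ T cells that had entered B16-GP33 tumours of mice. The tumour line, B16, is a melanoma of mice, here with GP33, a viral peptide (from lymphocytic choriomeningitis virus) seen by CD8+ T cells. The 2 groups, EV and ACSS2NLS, are given by the labels as genotypes, with 2 libraries each, all of CD8+ cells taken on day 21 after the tumour was implanted. The enzyme ACSS2 joins acetate to coenzyme A, and NLS commonly stands for nuclear localisation signal. How ACSS2NLS was brought into the cells, the mouse strain and age, and how many mice gave each library are not given in the sources used here. With no group that had extra ACSS2 alone, the amount of the enzyme and its location cannot be told apart. The comparison asks which genes changed in cells labelled ACSS2NLS.

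Granzymes are serine proteases that cytotoxic T cells store in granules and release onto a target cell, and perforin forms the pores through which they reach its cytosol. Granzyme B cuts after aspartate and starts apoptosis, while granzymes A and K cut after basic residues. Mice carry a row of further granzyme genes beside Gzmb that encode granzymes C to G. In tumours, Gzmb and Prf1 mark effector-like and terminally exhausted CD8+ cells, and Gzmk is often found in less differentiated cells.

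Acss2 was at 3.66 and 3.92 FPKM in EV, against 80.7 and 86.3 FPKM in ACSS2NLS, which matched the labels. FPKM are tags scaled to exon length and to the tags of the library, so levels of different genes can be compared. The depth was 46000000 to 49300000 tags per library. Defining CD8+ T cell genes were present, with Cd8a at 145 to 186 FPKM and Cd8b1 at 259 to 368 FPKM, against 1.12 to 2.40 FPKM of Cd4. Transcripts of other tumour cells differed between libraries. The summed level of 15 myeloid markers was 86.3 and 561 FPKM in EV replicates 1 and 2, against 220 and 1010 FPKM in ACSS2NLS replicates 1 and 2. For 9 melanoma markers the sums were 7.62 and 46.2 FPKM in EV, against 13.8 and 180 FPKM in ACSS2NLS. None of these markers was at 0 in any library. The 6 neutrophil markers, S100a8 and S100a9 the most abundant, summed to 7.29 and 53.5 FPKM in EV, against 0.685 and 3.14 FPKM in ACSS2NLS, where 3 and 1 of them were at 0. Replicate 2 was thus the higher library in each group for all 3 lists, and of the 3 only the neutrophil sums had no overlap between groups, with ACSS2NLS lower. The 6 markers of CD4+ and regulatory T cells summed to 174 and 84.04 FPKM in EV, against 98.4 and 33.3 FPKM in ACSS2NLS. Most of that sum was Ctla4, which exhausted CD8+ cells also express, and Foxp3 was at 2.37 to 3.89 FPKM.

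All 9 genes passed the filter of a mean of at least 1 FPKM, as 9810 genes did, and none of the 9 passed the test between the groups. The test was limma-trend on log2(FPKM + 1), two-sided, with Benjamini-Hochberg adjustment over all genes tested and a threshold of 0.05. By that rule 0.0204% of all genes were called in either direction, 2 higher (Acss2 and its antisense neighbour Acss2os) and 0 lower in ACSS2NLS. If the kit did not mark strand, reads of Acss2 and Acss2os cannot be told apart. Before adjustment 282 genes were lower (2.87%) and 304 higher (3.1%) at p under 0.05. Of the 9 genes, Gzmb was among the lower ones and none among the higher. The mean log2 level was lower in ACSS2NLS for 6 of the 9 genes, against 46.8% of all genes, with a median log2 change of -0.45 against 0.02. Both ACSS2NLS libraries lay below both EV libraries for Gzmb and Prf1 (18.1% of all genes) and above them for Gzma (19.3% of all genes). The 6 genes with a lower mean fell to 2 without ACSS2NLS replicate 1, namely Gzmb and Prf1, and to 4 without EV replicate 2.

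The levels of the 9 genes differed widely. Gzmb averaged 864 FPKM over the 4 libraries and ranked 11 of the 9810 genes, and Prf1 averaged 269 FPKM and ranked 66. Next came Gzmc at 55.6, Gzma at 29.2, Gzmf at 20.2, Gzmk at 16.2, Gzmd at 10.3, Gzme at 9.55 and Gzmm at 7.93 FPKM. From Gzmc downward, the ranges of neighbours in this order overlapped, so their order is not fixed beyond the spread of the libraries. Gzmb alone made up 91.9% and 82.8% of the summed granzyme FPKM in EV and 88.1% and 72.0% in ACSS2NLS. The RNA is a bulk measure, in which fewer cells of a type and less RNA per cell cannot be told apart.

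**Figure D1:**
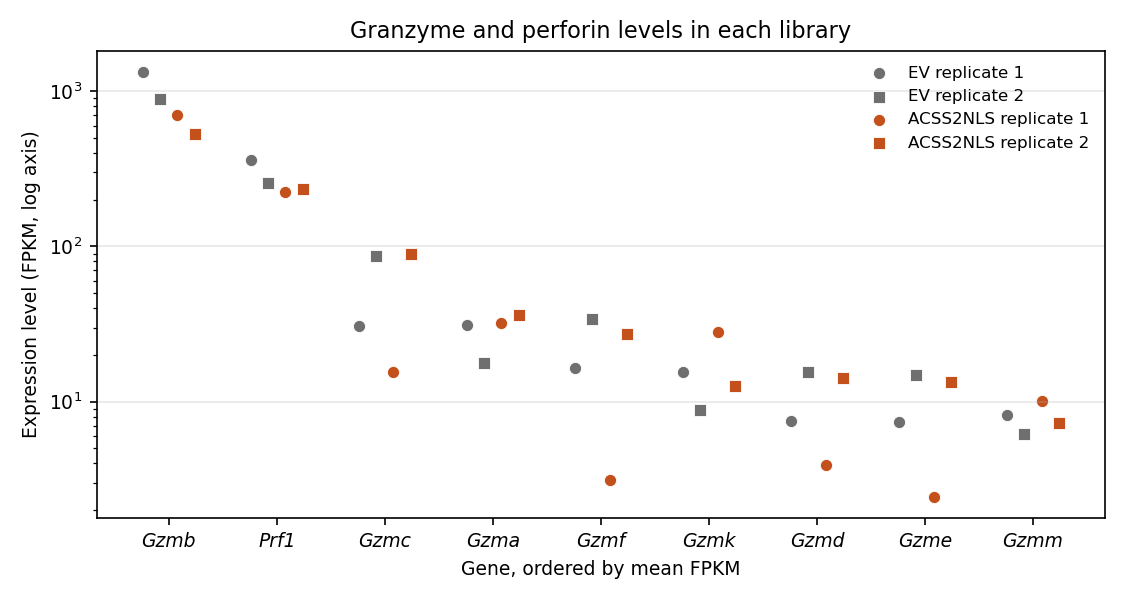
Level in FPKM (log axis) of each gene in each of the 4 libraries, with EV in grey, ACSS2NLS in orange, replicate 1 as circles and replicate 2 as squares. Gzmb and Prf1 stand above the other genes, and for Gzmc, Gzmd, Gzme and Gzmf the squares lie above the circles in both groups.

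Gzmb, which encodes granzyme B (NM_013542; mm10 chromosome 14, 56258836 to 56262334, minus strand), was lower in both ACSS2NLS libraries. Its level was 1334 and 890 FPKM in EV replicates 1 and 2, against 706 and 528 FPKM in ACSS2NLS replicates 1 and 2. The groups did not overlap, but the nearest libraries, EV replicate 2 and ACSS2NLS replicate 1, differed by less than the EV libraries did from each other. The mean was 1.80-fold higher in EV, and the log2 change was -0.83 ± 0.29 (SE, n = 2 per group; 95% interval -1.56 to -0.11; limma-trend, unadjusted p = 0.0316, adjusted p = 0.81). Leaving out 1 library at a time, the change ranged from -1.13 to -0.54. At least 38386 tags, worked out from the FPKM, lay behind each value, so counting error of the tags alone is small beside the spread between libraries. How many starting RNA molecules these tags stand for is not known.

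Prf1, which encodes perforin (NM_011073; chromosome 10, 61297836 to 61304263, plus strand), showed a smaller difference. It stood at 360 and 256 FPKM in EV, against 223 and 236 FPKM in ACSS2NLS. EV replicate 1 was the high library, and the other 3 lay close together. The log2 change was -0.40 ± 0.20 (95% interval -0.91 to 0.11; limma-trend, adjusted p = 0.81), and without EV replicate 1 it was -0.16.

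Gzma and Gzmk lie next to each other on chromosome 13, with 70.9 kb between them, on the minus strand. Gzma, the tryptase granzyme A (NM_010370; 113093827 to 113100981), was at 31.1 and 17.6 FPKM in EV, against 32.1 and 36.1 FPKM in ACSS2NLS. Only EV replicate 2 stood low, and EV replicate 1 was within 1.03-fold of ACSS2NLS replicate 1. Its log2 change was 0.52 ± 0.26 (95% interval -0.14 to 1.18), and without EV replicate 2 it was 0.13. Gzmk, granzyme K (NM_008196; 113171874 to 113180897), was at 15.4 and 8.85 FPKM in EV, against 27.9 and 12.6 FPKM in ACSS2NLS. The groups overlapped, and in each group replicate 1 was the higher library, by 1.74-fold in EV and 2.22-fold in ACSS2NLS. The log2 change of Gzmk was 0.64 ± 0.41 (95% interval -0.40 to 1.67), and without ACSS2NLS replicate 1 it was 0.09. Neither gene passed (limma-trend, adjusted p = 0.81 and 0.822).

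Gzmm, the methionine-cutting granzyme M (NM_001302499; chromosome 10, 79693826 to 79695261, plus strand), varied least among the granzymes. It was at 8.24 and 6.17 FPKM in EV, against 10.01 and 7.29 FPKM in ACSS2NLS, with overlapping groups. Its log2 change was 0.23 ± 0.21 (95% interval -0.28 to 0.75; limma-trend, adjusted p = 0.856).

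**Figure D2:**
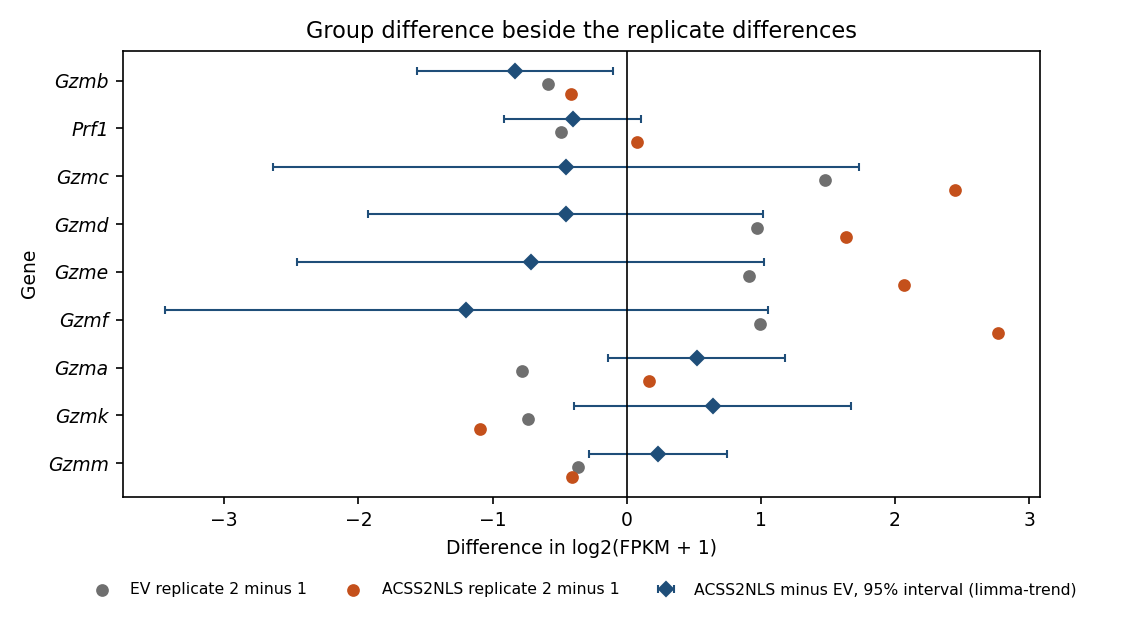
Group difference of each gene in log2(FPKM + 1), ACSS2NLS minus EV, as diamonds with 95% intervals, beside the difference between replicates within EV (grey) and within ACSS2NLS (orange). The interval of Gzmb lies below 0 (-1.56 to -0.11, before any adjustment), and for Gzmc to Gzmf both replicate differences are larger in size than the group difference, except in EV for Gzmf.

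Where 2 genes are read from T cells alone, their ratio within a library does not depend on how much T cell RNA it holds. Whether that condition held for these genes was not tested. Against the sum of 10 T cell markers (2308 and 1913 FPKM in EV, 2158 and 1687 FPKM in ACSS2NLS), Gzmb stood at 57.8 and 46.5 FPKM per 100 FPKM of markers in EV, against 32.7 and 31.3 in ACSS2NLS. The groups again did not overlap, and the mean was 1.63-fold higher in EV. Prf1 on the same scale was at 15.6 and 13.4 in EV, against 10.3 and 13.97 in ACSS2NLS, so its groups then overlapped. The ratio of Gzmb to Prf1 was 3.71 and 3.48 in EV, against 3.16 and 2.24 in ACSS2NLS, without overlap.

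The ratios of Gzmb to the granzymes outside its own gene row, chosen after the levels were seen, were also lower in both ACSS2NLS libraries. Gzmb was 162 and 144 times the level of Gzmm in EV and 70.5 and 72.5 times in ACSS2NLS. Against Gzma it was 43.0-fold and 50.5-fold in EV and 22.0-fold and 14.6-fold in ACSS2NLS. Against Gzmk it was 86.5-fold and 100.5-fold in EV and 25.3-fold and 42.0-fold in ACSS2NLS. The spread between replicates was smallest for the ratio to Gzmm, whose mean was 2.14-fold higher in EV. As shares of the summed granzyme FPKM, Gzma made up 2.14% and 1.64% in EV, against 4.01% and 4.93% in ACSS2NLS. The share of Gzmk was 1.06% and 0.824% in EV, against 3.49% and 1.72% in ACSS2NLS, so neither share overlapped between groups. Gzmb made up 72.0% to 91.9% of that sum, so these shares and the ratios above partly restate its lower level. By FPKM alone the groups overlapped for Gzmk, and 19.3% of all genes lay wholly above in ACSS2NLS. The whole sum was 1451 and 1075 FPKM in EV, against 801 and 733 FPKM in ACSS2NLS, an order set mainly by Gzmb. These ratios and shares are given as values with no test, and the smallest p that an exact permutation test of 2 against 2 libraries allows is 0.33.

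**Figure D3:**
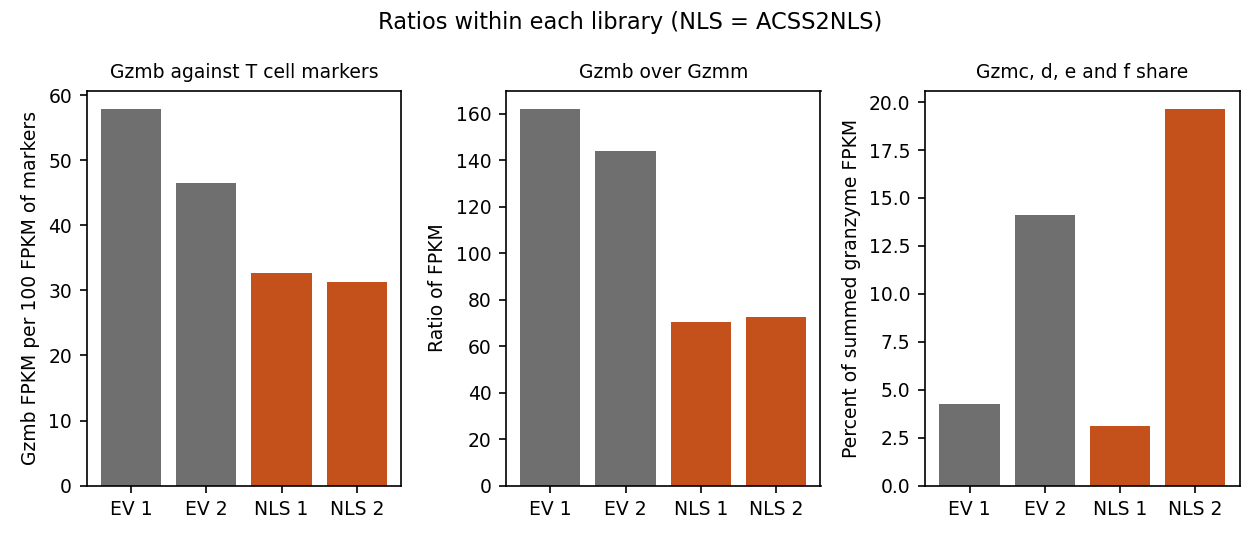
Ratios within each library, EV in grey and ACSS2NLS in orange, with 1 bar per library. Gzmb per 100 FPKM of T cell markers (left) and the ratio of Gzmb to Gzmm (middle) are lower in both ACSS2NLS libraries, while the share of Gzmc, Gzmd, Gzme and Gzmf in the summed granzyme FPKM (right) is higher in replicate 2 of both groups (14.1% and 19.6%) than in replicate 1 (4.28% and 3.12%).

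Gzmc, Gzmd, Gzme and Gzmf differed more between replicates than between groups. They lie on the minus strand of chromosome 14 in a row of 145 kb that begins with Gzmb. Their transcripts are NM_010371 for Gzmc (56231401 to 56234657), NM_010374 for Gzmf (56205263 to 56211407), NM_010372 for Gzmd (56129568 to 56132593) and NM_010373 for Gzme (56117619 to 56120625). The enzymes are granzymes C to F, which activated cytotoxic cells make late in a response. Gzmc was at 30.7 and 87.1 FPKM in EV replicates 1 and 2, against 15.5 and 89.0 FPKM in ACSS2NLS replicates 1 and 2. Gzmf was at 16.5 and 33.9 FPKM in EV, against 3.13 and 27.1 FPKM in ACSS2NLS. The replicate 2 libraries of both groups were thus alike and high, and ACSS2NLS replicate 1 was the lowest.

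The other 2 genes split the libraries in the same way. Gzmd was at 7.49 and 15.6 FPKM in EV, against 3.92 and 14.3 FPKM in ACSS2NLS. Gzme was at 7.43 and 14.9 FPKM in EV, against 2.44 and 13.4 FPKM in ACSS2NLS. Replicate 2 exceeded replicate 1 by 2.005-fold to 2.84-fold in EV and by 3.64-fold to 8.65-fold in ACSS2NLS over the 4 genes. The 4 genes were not in fixed proportion, since the ratio of Gzmc to Gzmf was 1.86 and 2.57 in EV, against 4.94 and 3.28 in ACSS2NLS. That ratio was higher in both ACSS2NLS libraries, with 138 tags of Gzmf behind the highest value. Between groups, the log2 changes were -0.46 ± 0.87 for Gzmc, -0.45 ± 0.59 for Gzmd, -0.72 ± 0.70 for Gzme and -1.20 ± 0.90 for Gzmf (limma-trend, adjusted p from 0.835 to 0.934). The 95% interval for Gzmf ran from -3.44 to 1.05, so changes of several-fold in the lower direction are within the error. Without EV replicate 2 the changes of Gzmc and Gzmd were 0.28 and 0.03. Without ACSS2NLS replicate 1 all 4 changes turned upward, from 0.19 for Gzmf to 0.77 for Gzmc, and without ACSS2NLS replicate 2 they were -1.27 to -2.58.

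The summed myeloid, melanoma and neutrophil markers given above were also higher in replicate 2 than in replicate 1 of each group. With the mean level of the myeloid markers as a term in the fit, the log2 changes were -1.17 for Gzmc, -0.93 for Gzmd, -1.25 for Gzme and -1.86 for Gzmf, and all 4 passed (limma-trend, adjusted p from 0.000563 to 0.00914). In that fit 1.16% of all genes were called lower and 0.846% higher. There Gzmk rose by 0.97 and Gzma by 0.66 (adjusted p = 0.000936 and 0.0432), while Gzmb was at -0.64 (adjusted p = 0.145). With the melanoma markers instead, Gzmc, Gzme and Gzmf passed downward, at -1.42, -1.48 and -2.18 (adjusted p = 0.0184, 0.0353 and 0.0184), where 0.0408% of all genes were called lower and 0.0612% higher. Each of these fits leaves 1 residual degree of freedom among 4 libraries, and the part of other cells in the result was not tested.

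Most of the listed markers of NK cells, mast cells and basophils, other cells that can make granzymes, were low. Ncr1, which encodes the NK cell receptor NKp46, was at 1.08 and 1.26 FPKM in EV, against 0.930 and 0.711 FPKM in ACSS2NLS. Klrb1c, the NK1.1 gene, was at 1.34 and 1.90 FPKM in EV, against 0.976 and 0.560 FPKM in ACSS2NLS. The NK receptor genes Klra4, Klra8, Klra9 and Klrb1b lay between 0.076 and 1.22 FPKM in the 4 libraries. The whole list of 9 NK markers summed to 28.2 and 96.9 FPKM in EV, against 51.4 and 136 FPKM in ACSS2NLS, of which Fcer1g and Tyrobp, genes that myeloid cells share, made up most. Of this list Cma1, a mast cell chymase gene, was at 0 in both replicate 2 libraries. The 7 mast cell and basophil markers summed to 1.23 to 7.33 FPKM, with Fcer1a, which encodes a chain of the IgE receptor, listed at 0 in 3 libraries. Of 5 markers of gamma-delta T cells only 3 could be looked up, and they summed to 0.05 to 0.448 FPKM.

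Along the chromosome, the level did not fall steadily with distance from Gzmb. The start of Gzmc lies 27.7 kb downstream of that of Gzmb, followed by Gzmf at 50.9 kb, Gzmn at 87.7 kb, Gzmg at 103 kb, Gzmd at 130 kb and Gzme at 142 kb. Gzmn, in the middle of the row, had 1 to 4 tags per library (0.021 to 0.087 FPKM). Gzmg was at 0.458 and 0.921 FPKM in EV, against 0 and 5.13 FPKM in ACSS2NLS, or 19, 41, 0 and 224 tags. Gzmg was thus higher in replicate 2 of both groups, as Gzmc was, but stood below its neighbour Gzmd in all 4 libraries. The level of Gzmg is uncertain, since 19.8% of the 50-base stretches of its transcript also occurred in another granzyme gene. Genes of the mast cell proteases on the same chromosome were near 0, with Mcpt8 at 0.049 to 0.772 FPKM and Mcpt1, Mcpt2, Mcpt4 and Mcpt9 listed at 0 in all 4 libraries.

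**Figure D4:**
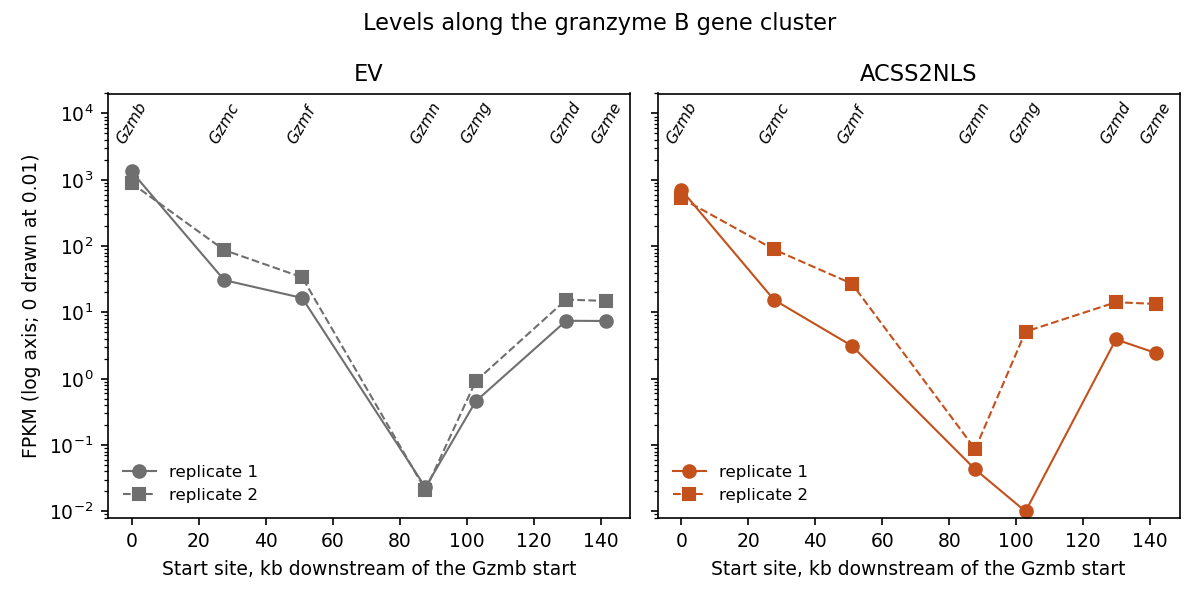
Level in FPKM (log axis) of Gzmb and the 6 granzyme genes beside it, placed by the distance of their start sites from that of Gzmb, with circles for replicate 1 and squares for replicate 2 and lines only to guide the eye. Replicate 2 lies below replicate 1 for Gzmb and above it for Gzmc, Gzmf, Gzmg, Gzmd and Gzme in both groups.

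The promoter windows of this row are shown to compare the upstream sequence of Gzmb with that of its neighbours. Whether upstream sequence bears on the levels was not tested. The 250 bases before the start sites (RefSeq, GRCm38.p6, with all 9 genes and Gzmg and Gzmn matched) were aligned in pairs with free end gaps. For Gzmk the start site used lay 68 bases from the start of the transcript measured here. Between 79.2% and 95.2% of the 250 bases matched among Gzmc, Gzmd, Gzme, Gzmf and Gzmg, with Gzmd and Gzme the most alike. Gzmb matched these 5 at 34% to 48.4%, and Prf1 and Gzmk, on other chromosomes, at 57.6% each. All 45 pairs not within these 5, those of Gzmb included, ran from 2% to 58.4%, with a median of 43.2%. The match of Gzmb with its neighbours was thus no closer than that of other pairs. The last 110 bases before the start site of each gene follow, 5′ to 3′ on the minus strand, with capitals for TGACG, the half-site of a cAMP response element, on either strand.
Gzmb (chr14:56262335-56262444): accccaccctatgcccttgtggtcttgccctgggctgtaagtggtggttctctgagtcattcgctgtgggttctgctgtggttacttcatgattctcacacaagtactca
Gzmc (chr14:56234658-56234767): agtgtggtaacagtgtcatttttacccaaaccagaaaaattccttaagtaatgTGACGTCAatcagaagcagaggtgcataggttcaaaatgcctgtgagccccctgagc
Gzmf (chr14:56211408-56211517): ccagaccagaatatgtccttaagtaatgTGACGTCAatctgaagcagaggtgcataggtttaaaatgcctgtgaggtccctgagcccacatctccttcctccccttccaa
Gzmg (chr14:56159580-56159689): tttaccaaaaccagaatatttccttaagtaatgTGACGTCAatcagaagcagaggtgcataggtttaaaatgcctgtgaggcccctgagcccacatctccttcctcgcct
Gzmd (chr14:56132594-56132703): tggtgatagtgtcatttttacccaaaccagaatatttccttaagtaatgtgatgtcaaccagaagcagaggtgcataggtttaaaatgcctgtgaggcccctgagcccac
Gzme (chr14:56120626-56120735): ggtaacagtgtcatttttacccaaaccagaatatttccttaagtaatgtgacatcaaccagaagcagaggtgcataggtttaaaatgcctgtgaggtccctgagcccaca

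In Gzmc, Gzmf and Gzmg the half-site stood on both strands, overlapping as TGACGTCA, and in Gzmd and Gzme the letters TGACG were not in the window. Over the 250 bases, 3 of the 9 genes held TGACG (Gzmc, Gzmf and Prf1), as did 17.7% of 32817 promoter windows of the same length. The letters TGTGGT, a motif of RUNX factors, were in 7 of the 9 windows, against 14.04% of all windows, on either strand. They were at 2 places each in Gzmb, Gzmc, Gzmd, Gzme and Gzmf, and at 1 in Gzma and Prf1. Since the windows of Gzmc to Gzmf share most of their bases, these are not independent matches. The AP-1 motif TGANTCA was in the window of Gzmb only (6.75% of all windows). The T-box half-site TCACAC was in those of Gzmb, Gzmk and Gzmm (12.3% of all windows). The E-box CANNTG was in all 9 windows (66.2% of all windows) and the ETS core GGAA in 8 of 9 (93.4% of all windows). These matches were sought on either strand and describe letters, not binding.

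The likeness reaches into the transcripts, which limits how tags could be assigned. Gzmd and Gzme transcripts matched over 94.98% of the shorter one, and the other pairs among Gzmc to Gzmg over 74.5% to 90.2%. Gzmb matched these 5 over 70.8% to 78.0%. Its match with Gzmc (78.0%) was above those of Gzmc with Gzmd to Gzmg (74.5% to 77.6%). All 45 pairs not within Gzmc to Gzmg, those of Gzmb included, ran from 29.95% to 84.2%, with a median of 62.4%. Of the stretches of 50 bases in the transcript, 21.9% in Gzmd, 20.6% in Gzme, 7.36% in Gzmf and 4.14% in Gzmc also occurred in another granzyme gene. The share was 19.8% in Gzmg and 6.06% in Gzmn. The sources used here do not say how tags with several matches were counted, so the separate levels of Gzmd, Gzme and Gzmg are uncertain. No such stretch of Gzma, Gzmb, Gzmk, Gzmm or Prf1 occurred in another of these genes.

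The genes most like each one in pattern were sought by Euclidean distance between log2(FPKM + 1) profiles over the 4 libraries, each centred on its mean, among the genes tested that varied with an SD of at least 0.1. Gzmb was closest to Nfkbiz (distance 0.05), an IκB family gene, followed by Gadd45a and Pde4b. Nfkbiz was at 36.8 and 23.2 FPKM in EV, against 18.1 and 13.8 FPKM in ACSS2NLS. Gzme was closest to Gzmd (0.41), and Gzmf to Gzme (0.69), before any other gene. Gzmc was closest to Clec4e and Il1rn (0.47 and 0.50), genes that myeloid cells express, then to Ecm1, with Gzme at place 4. Gzmd was closest to Ecm1, Ifitm2 and Klra5, with Gzme at place 6. Gzma was closest to Tbx21 (0.21), the gene of the effector factor T-bet, then to Dcun1d2 and the chemokine gene Ccl4. The nearest genes to Gzmk were Bambi-ps1 and Klf2 (0.33 and 0.37), to Prf1 they were Il12rb1 and Mir7048 (0.06 and 0.06), and to Gzmm they were Tra2b and Hscb (0.04 and 0.05). With 4 libraries many genes share a pattern, and these distances carry no test.

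Genes that load and activate granzymes showed no common direction. Of 10 tested, 5 had a lower and 5 a higher mean log2 level in ACSS2NLS (median log2 change -0.02, against 0.02 for all genes), and none passed. Ctsc, the cathepsin that trims granzyme proenzymes, was at 16.8 and 21.3 FPKM in EV, against 15.8 and 24.2 FPKM in ACSS2NLS. Srgn, the serglycin core protein that holds granzymes in the granule, was at 301 and 280 FPKM in EV, against 315 and 237 FPKM in ACSS2NLS. Nkg7, a granule membrane protein needed for release, was at 1738 and 1285 FPKM in EV, against 1589 and 1151 FPKM in ACSS2NLS. The log2 changes of these 3 genes were 0.05 ± 0.23, -0.09 ± 0.19 and -0.14 ± 0.30. The smallest unadjusted p of the list was that of the lysosome membrane gene Lamp2, at 0.25 ± 0.24, followed by the mannose 6-phosphate receptor M6pr at 0.11 ± 0.11.

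Genes of granule docking and release tended to lie lower in ACSS2NLS. Of 15 tested, 11 had a lower mean (median log2 change -0.13), and in 8 both ACSS2NLS libraries lay below both EV libraries, which held for 18.1% of all genes. None passed over all genes (limma-trend, adjusted p of at least 0.81). Sytl2, a synaptotagmin-like protein that links RAB27A to the membrane, was at 23.5 and 16.6 FPKM in EV, against 12.2 and 13.2 FPKM in ACSS2NLS (log2 change -0.60 ± 0.18). Its relative Sytl3 was at 16.1 and 13.2 FPKM in EV, against 11.1 and 10.7 FPKM in ACSS2NLS (-0.39 ± 0.14). Rab27a itself, the GTPase that docks granules, had a log2 change of -0.27 ± 0.14, and Unc13d, which primes them for fusion, -0.08 ± 0.11. Vamp7 was listed at 0 in all libraries.

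Most inhibitors that shield a cytotoxic cell from its own proteases had lower means in ACSS2NLS, though none passed over all genes. Of 10 tested, 7 had a lower mean (median log2 change -0.23), and in all 7 both ACSS2NLS libraries lay below both EV libraries. Over all genes 46.8% had a lower mean and 18.1% lay wholly below. Of the other 3, the cystatin genes Cstb and Cst3 lay wholly above, as 19.3% of all genes did. Serpinb9, the inhibitor of granzyme B, stood at 84.5 and 91.8 FPKM in EV, against 62.0 and 67.8 FPKM in ACSS2NLS (log2 change -0.44 ± 0.12). Serpinb6b, an inhibitor of granzyme A, was at 58.7 and 54.0 FPKM in EV, against 50.02 and 46.6 FPKM in ACSS2NLS (-0.22 ± 0.12). The cystatin F gene Cst7, whose product restrains cathepsin C, had a log2 change of -0.25 ± 0.15. The largest differences were those of Serpina3f (-1.11 ± 0.12; limma-trend, adjusted p = 0.43), Serpinb1a (-1.03 ± 0.35, named after its value was seen) and Serpina3g (-0.64 ± 0.13), whose products are less tied to granzymes. Serpinb9b, an inhibitor of granzyme M named after its value was seen, was higher in ACSS2NLS replicate 2 (72.3 FPKM) than in the other 3 libraries (38.8 to 52.4 FPKM).

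Genes for other means of killing had means in either direction. Fasl, the death receptor ligand, was at 39.2 and 29.9 FPKM in EV, against 40.8 and 25.5 FPKM in ACSS2NLS (log2 change -0.08 ± 0.25). Tnf had a log2 change of 0.39 ± 0.34, with ACSS2NLS replicate 2 as its high library, and Tnfsf10, the TRAIL gene, one of 0.05 ± 0.22. Of the 6 ligand and cytokine genes, 2 had a lower and 4 a higher mean log2 level, and none passed. Lta, the lymphotoxin alpha gene, was at 8.17 and 8.47 FPKM in EV, against 12.3 and 13.1 FPKM in ACSS2NLS (0.56 ± 0.12). Ifng was at 413 FPKM in EV replicate 1 and at 243 to 247 FPKM in the other 3 libraries, a pattern with the same high library as that of Prf1.

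Among 20 transcription factors of the cytotoxic programme, 9 had a lower and 11 a higher mean log2 level in ACSS2NLS (median log2 change 0.11), and none passed over all genes. Eomes, a T-box factor that drives Prf1 and Gzmb in effector cells and also marks memory cells, was at 4.23 and 5.52 FPKM in EV, against 9.34 and 9.16 FPKM in ACSS2NLS (log2 change 0.81 ± 0.16; limma-trend, adjusted p = 0.775). Tbx21, its relative, was at 74.5 and 47.8 FPKM in EV, against 75.2 and 78.9 FPKM in ACSS2NLS (0.36 ± 0.22). Prdm1, which encodes the terminal differentiation factor BLIMP-1, was at 14.5 and 8.18 FPKM in EV, against 7.51 and 6.18 FPKM in ACSS2NLS (-0.61 ± 0.27). Runx3, the CD8+ lineage factor, was at 9.69 to 10.9 FPKM in all 4 libraries (0.09 ± 0.12). The smallest unadjusted p values were those of Id3 (1.64 ± 0.20) and Tcf7 (0.83 ± 0.15), factors of progenitor and memory cells. The T-box factor genes thus had higher means in ACSS2NLS, while Gzmb, Prf1 and Prdm1 had lower ones. Tbx21 was near equal in the replicate 1 libraries, and EV replicate 2 was its low library. Id2 and the effector and residency factor gene Bhlhe40, named after their values were seen, also had lower means (-0.80 ± 0.17 and -1.21 ± 0.35).

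**Figure D5:**
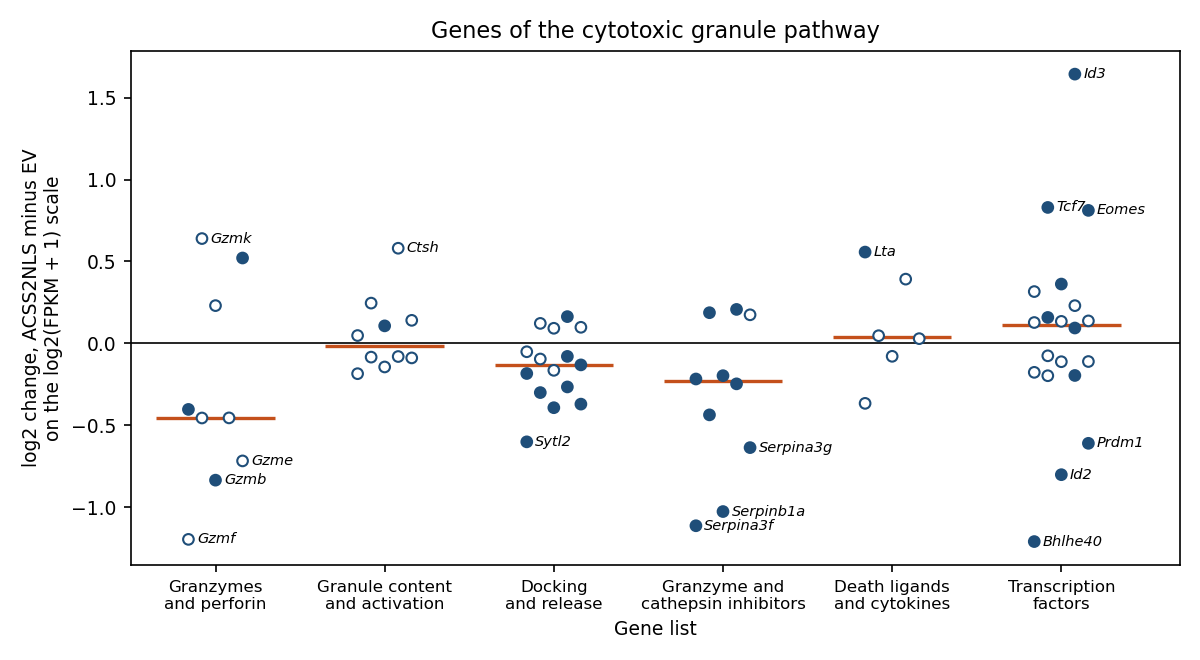
Log2 change (ACSS2NLS minus EV, on the log2(FPKM + 1) scale) of each tested gene in the granzyme and perforin list and in 5 pathway lists, with filled points where the groups do not overlap and the median of each list as an orange line. In the inhibitor list the 7 points below 0 are all filled, and among the granzymes those of Gzmc, Gzmd, Gzme, Gzmf, Gzmk and Gzmm are open.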

How the data were processed

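RNA was measured in 4 libraries of CD8+ cells. The library kit, per the labels' protocols, was SMART-Seq v4 (Ultra Low Input). The submitters' processing notes name the aligner STAR 2.5.3a, HOMER and the mm10 build. HOMER, per the file headers, counted sense-strand tags over exons, condensed each gene to 1 transcript and scaled to FPKM. The sources used here do not give whether the kit marked strand. No other gene of the table overlapped a granzyme or Prf1. The columns Acss2WT and Acss2OE were read as EV and ACSS2NLS. The header names 8 tag directories and the table has 4 library columns.

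The deposited FPKM fell on whole tags in 100% of values checked (tolerance 0.1 tag, exons of 500 to 2000 bases, up to 50 tags), which gave the library totals and tag numbers. No count test was run. Genes averaging at least 1 FPKM over the libraries were tested with limma 3.58.1 in R 4.3.3 on log2(FPKM + 1), with a threshold of 0.05. The test was run on simulated data. Alternatives were other pseudocounts and filters, quantile normalization, scaling to T cell markers, a replicate block, marker covariates and each library left out. Sequences were aligned with Biopython 1.88.

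The genes and the pathway and marker lists were chosen with earlier results of these data known. Named genes were the 9, Gzmg, Gzmn, Acss2, 15 fixed pathway genes, up to 2 per list with the smallest unadjusted p, and the 3 nearest in pattern to each gene. No label says that the samples are from separate mice, and p-values speak only to the spread among these libraries, and this may be technical.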

Additional observations from a re-analysis of the deposited data

How the results depend on the processing

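With all 4 libraries and no added term, the signs of the 9 log2 changes were the same at pseudocounts of 0.1 and 0.5, with no filter, at a mean of at least 5 FPKM, under quantile normalization and with scaling to T cell markers, and none of the 9 passed. Over all genes, 2 were higher and 0 lower, against 1 higher with no filter, 229 higher and 172 lower with the replicate block, 83 higher and 114 lower with a myeloid covariate, and 6 higher and 4 lower with a melanoma covariate. These last 3 fits leave 1 residual degree of freedom. With the replicate block Gzmb, Gzme, Gzmf and Gzmk passed (limma-trend, adjusted p = 0.0027, 0.0358, 0.00347 and 0.00686). Gzma, Gzmc, Gzmd, Gzmm and Prf1 did not pass with it (limma-trend, adjusted p from 0.0793 to 0.496). The block left the log2 changes as without it, with -0.46 for Gzmc and -0.45 for Gzmd. The numbers are not known to pair samples; across genes the replicate 2 minus 1 differences of the groups had a Pearson r of 0.583, and genes are not independent replicates. Leaving out 1 library, 2 genes were higher each time and 0 to 9 lower (9 without EV replicate 1, 2 without EV replicate 2), and 2 to 6 of the 9 had a lower mean. The change ranged from -1.68 to 0.77 for Gzmc, -1.27 to 0.36 for Gzmd, -1.75 to 0.32 for Gzme and -2.58 to 0.19 for Gzmf; the other 5 kept their sign. A lone library was assumed to vary like the other group.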

Other observations

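A replicate difference of the size seen for Gzmc to Gzmf was uncommon in the table. At a threshold chosen after these values were seen, 197 of 9810 genes (2.01%) were higher in replicate 2 than in replicate 1 by more than 0.8 in log2(FPKM + 1) in both groups, Gzmc, Gzmd, Gzme and Gzmf among them. The median size of the replicate difference over all genes tested was 0.15 in EV and 0.20 in ACSS2NLS. Over the 9 granzyme and perforin genes it was 0.78 and 1.09. Gzmb, Gzmk and Gzmm went the other way, lower in replicate 2 in both groups, as did 26.5% of all genes. Bhlhe40, an effector and residency factor named after its value was seen, was at 447 and 228 FPKM in EV, against 161 and 118 FPKM in ACSS2NLS (log2 change -1.21 ± 0.35), with its libraries in the same order as those of Gzmb.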
